A study of Homo sapiens with 12 samples.

Results

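The genes described here are 34 transporters of drugs, bile salts and sterols, which decide what a liver cell takes up from blood and what it sends out to bile or back to blood. Earlier results of these data were known when the list was made. The 34 genes were chosen by name, as a list of symbols, out of 18404 genes that the array annotation names by a probe set with a single symbol. Of the 34 genes, 32 had such a probe set, and SLC22A3 and ABCC6 had none in the annotation used here. SLC22A18 is listed there as SLC67A1. Where a gene had more than 1 probe set, as SLCO4C1 did among the transporters, the one with the highest mean represented it. A gene was tested when at least 3 of the 12 arrays lay above the 40th percentile of all probe sets on the same array, and 24 of the 32 genes passed this filter.

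The cells were HepG2C3A, an established line from a human liver tumour that keeps part of the hepatocyte programme. Culture lasted 96 h and took place in Petri dishes or in a microsystem that the labels do not describe further. In each culture, 3 arrays came from untreated cells and 3 from cells exposed to acetaminophen for 72 h, which makes 4 groups of 3. They are called controls and treated cells of either culture below, all of 1 line and with no genetic change named in the labels. The labels used here state no dose. Nothing in them says whether replicates were separate cultures, so the p-values measure only how far these samples spread, and that spread may be technical.

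A hepatocyte takes up bile salts and drugs through its basolateral membrane, mainly by organic anion transporting polypeptides (the SLCO family), the sodium-coupled bile salt carrier SLC10A1 and organic anion and cation carriers of the SLC22 family. It exports conjugates, bile salts, phospholipid and sterols across the canalicular membrane with ATP-driven pumps of the ABC family, and has further pumps and the SLC51A/SLC51B exchanger that return organic anions and bile salts to blood. Acetaminophen is cleared largely as glucuronide and sulfate conjugates, which are substrates of ABCC2, ABCC3 and ABCG2. Values below are log2 intensities, so a difference of 1 is a doubling, and each probe set is compared only with itself across groups.

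The array medians lay between 5.556 and 5.629, and Pearson's r over probe sets was 0.991 to 0.995 for pairs of arrays from the same group. Both microsystem arrays numbered 3 stood apart from the others of their groups on the third principal component (6.77% of the variance). The liver identity of the cells was visible in all groups. ALB and AFP lay above the 99th percentile of every array, and the mean of 10 hepatocyte markers ranged from 11.5 to 11.7 in Petri controls and in microsystem controls. FGB of the same list ranged from the 57.3 to the 72.5 percentile. From Petri to microsystem controls ALB and AFP rose by 0.28 and 0.49, and FGB and TF fell by 0.46 and 0.35. The other 6 did not pass an adjusted p under 0.05 by limma. The share that passed was 40%, beside 44.9% of all genes tested. The 3 endothelial markers failed the filter, as did PTPRC, the pan-leukocyte marker. The other 3 blood cell markers and the 4 bile duct markers were measured in the line. As a mean over each list, the blood markers were lower in microsystem controls (7.14 to 7.15) than in Petri controls (7.44 to 7.46), and so were the bile duct markers (8.16 to 8.18 against 8.36 to 8.52). The lists did not move as a whole. Of the blood markers CD68 and CD14 fell by 1.05 and 0.43 between these groups while LYZ rose by 0.33, and of the bile duct markers KRT19 and SOX9 fell by 0.74 and 0.28 while EPCAM (-0.05) and KRT7 (0.04) did not pass. Their part in the culture differences described below was not tested. All samples were of 1 line, so the lists check the label and do not count blood or bile duct cells. In such bulk RNA, fewer cells expressing a gene and less RNA per cell cannot be told apart.

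The main uptake carriers of hepatocytes were not measured above the filter in this line. SLCO1B1 and SLCO1B3, the liver-specific carriers of bilirubin, statins and bile salts, and SLC10A1, the sodium-coupled bile salt importer, exceeded the 40th percentile on 0 of 12 arrays. The same held for ABCB11, the canalicular bile salt export pump, for ABCG1, which moves cholesterol to lipoproteins, for the proton-coupled drug exporter SLC47A2, for the peptide carrier SLC15A1 and for SLCO3A1. SLCO1B1 had group means from 2.72 to 2.84, SLC10A1 from 4.12 to 4.23 and ABCB11 from 2.87 to 2.95, each with n = 3 per group. Every one of their arrays stayed under the filter in all 4 groups. SLCO1B1 and SLCO1B3 are close relatives in sequence, and their values are uncertain where probes could be shared, as are those of SLC47A1 and SLC47A2. The 8 genes were not tested and enter no count that follows.

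The comparison of the cultures in untreated cells asked how the microsystem changed the transporter set. The efflux pumps ABCG2, ABCC2, ABCB1, ABCC3, ABCC5 and ABCC10 and the sterol pump pair ABCG5 and ABCG8 were higher in the microsystem. SLC51A, ATP8B1 and SLC47A1 were lower. With limma and Benjamini-Hochberg adjustment over all genes tested, 13 of the 24 transporters rose, 5 fell and 6 did not pass at an adjusted p under 0.05. The share that passed was 75%, while 44.9% of all 13199 genes tested passed (26.5% rose and 18.3% fell). As the list was made with earlier results of these data known, the gap between these shares is a description. The median difference was 0.37 over the 24 transporters and 0.01 over all genes. In 17 of the 24 (70.8%) the 3 arrays of one culture lay entirely to one side of the other 3, as in 52.4% of all genes. SLCO4C1 entered the test only through the microsystem arrays, where it was high, so that its difference is a description. Without it, 12 of 23 rose and 5 fell (73.9%), with a median of 0.33.

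**Figure D1:**
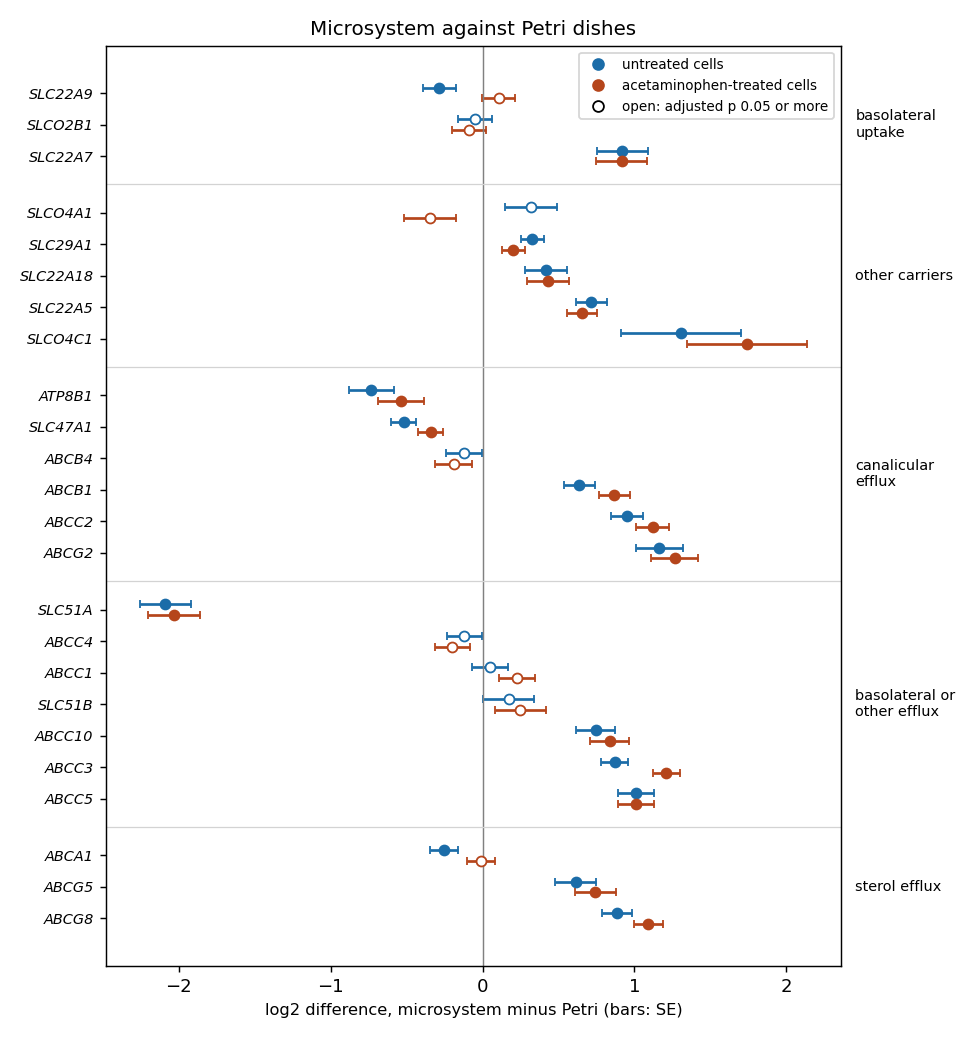
Log2 differences between cultures (microsystem minus Petri, horizontal axis) for the 24 tested transporter genes, grouped by role. Points are estimates from 3 against 3 arrays, bars are SE, blue is untreated and red acetaminophen-treated cells, and open points did not pass an adjusted p of 0.05. SLC51A stands alone at -2.09 and -2.03, while most ABC pumps lie between 0.6 and 1.3. SLCO4C1 entered the test only through the microsystem arrays, so its filled points are a description.

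Among the canalicular pumps, ABCG2, which exports sulfate conjugates, urate and many drugs, read 6.17, 6.29 and 6.19 in Petri controls and 7.54, 6.99 and 7.61 in microsystem controls. All microsystem arrays were above all Petri arrays, with microsystem control 2 the lowest of its group. The rise was 1.16 ± 0.16 SE, or 2.24-fold (adjusted p = 5.17e-05). ABCC2, the canalicular pump for glucuronide and glutathione conjugates, read 11.19, 11.08 and 11.02 in Petri controls and 12.22, 12.14 and 11.78 in microsystem controls. It rose by 0.95 ± 0.11 (1.93-fold, adjusted p = 1.45e-05), again without overlap. ABCB1, the multidrug pump P-glycoprotein, rose by 0.64 ± 0.10, from 9.39 ± 0.09 to 10.03 ± 0.18 (SD, n = 3), with adjusted p = 0.000222. Its tandem neighbour ABCB4, the phosphatidylcholine floppase of bile, differed by -0.12 ± 0.12 with overlapping groups (adjusted p = 0.441). ABCB1 and ABCB4 are close relatives in sequence, so their values are uncertain where probes could be shared.

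The canalicular genes that fell were ATP8B1 and SLC47A1. ATP8B1, a lipid flippase that keeps the canalicular membrane stable against bile salts, read 7.05, 6.58 and 6.51 in Petri controls and 5.74, 6.16 and 6.05 in microsystem controls. Its groups did not overlap, and the fall was -0.73 ± 0.15 (adjusted p = 0.0014). SLC47A1, which exports organic cations such as metformin in exchange for protons, read 9.01, 9.06 and 9.13 in Petri controls and 8.41, 8.59 and 8.63 in microsystem controls. It fell by 0.52 ± 0.08 (1.43-fold, adjusted p = 0.000215).

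Pumps of the basolateral side also rose. ABCC5, an exporter of cyclic nucleotides and nucleotide analogues, read 6.50, 6.35 and 6.53 in Petri controls and 7.73, 7.42 and 7.27 in microsystem controls. It rose by 1.01 ± 0.12 (2.02-fold, adjusted p = 2.01e-05). ABCC3, which returns glucuronides and bile salts to blood, rose by 0.87 ± 0.09, from 7.63 ± 0.09 to 8.50 ± 0.05 (SD, n = 3), with adjusted p = 5.55e-06. ABCC10, another organic anion pump, rose by 0.74 ± 0.13 (adjusted p = 0.000366), while ABCC1, present in most cells, and the nucleotide and bile salt exporter ABCC4 differed by 0.05 ± 0.12 and -0.12 ± 0.11 and did not pass.

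The bile salt exchanger split into its subunits. SLC51A encodes the alpha subunit of a heterodimer that carries bile salts and steroid sulfates across the basolateral membrane, and SLC51B encodes the small beta subunit that the alpha subunit needs to reach the membrane. SLC51A had the largest culture difference of the 24 genes in either direction. It read 8.44, 8.59 and 8.85 in Petri controls and 6.41, 6.43 and 6.77 in microsystem controls. All Petri arrays were far above all microsystem arrays. The fall was -2.09 ± 0.17, or 4.25-fold (adjusted p = 1.1e-06). SLC51B averaged 6.56 ± 0.10 in Petri controls and 6.73 ± 0.15 in microsystem controls (SD, n = 3), a difference of 0.17 ± 0.17 (95% interval -0.19 to 0.53, adjusted p = 0.431). Because this member moved so far, the 250 bases before the SLC51A start are shown from RefSeq (GRCh38.p14, chr3:196216284-196216533, plus strand), 5′ to 3′, without capitals since none of the searched motifs matched.
SLC51A: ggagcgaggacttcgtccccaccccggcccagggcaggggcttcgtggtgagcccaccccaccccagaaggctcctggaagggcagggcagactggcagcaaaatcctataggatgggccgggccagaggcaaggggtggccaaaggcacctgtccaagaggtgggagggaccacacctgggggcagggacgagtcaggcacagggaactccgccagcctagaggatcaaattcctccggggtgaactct

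Sterol efflux genes moved in different directions. ABCG5 and ABCG8 encode the subunits of a heterodimer that secretes cholesterol and plant sterols into bile, and ABCA1 loads cholesterol onto apolipoprotein A-I. ABCG8 read 6.26, 6.17 and 6.01 in Petri controls and 6.97, 7.19 and 6.94 in microsystem controls, a rise of 0.89 ± 0.10 (1.85-fold, adjusted p = 1.08e-05). ABCG5 read 7.28, 7.21 and 6.73 in Petri controls and 7.73, 7.83 and 7.49 in microsystem controls. It rose by 0.61 ± 0.14 (1.53-fold, adjusted p = 0.0024). Neither gene had overlapping groups. ABCA1 averaged 8.90 ± 0.14 and 8.65 ± 0.13 (SD, n = 3). It fell by 0.25 ± 0.09 (adjusted p = 0.0387), a call lost in 8 of 22 alternatives, among them leaving out Petri control 1 (adjusted p = 0.159), microsystem control 3 (0.148), microsystem control 2 (0.0639) or Petri treated 2 (0.0513), in a range of 0.0244 to 0.159.

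The pair ABCG5 and ABCG8 is shown because its members are transcribed away from each other. In the RefSeq promoter table (GRCh38.p14) their start sites on chromosome 2 face opposite ways with 131 bases between them, at chr2:43838840-43838970, although the longest RefSeq span of ABCG5 reaches past the ABCG8 start. The interval is given on the plus strand, the strand of ABCG8. Capitals mark the match to the GATA box, searched as AGATAA on both strands, which lies 25 to 30 bases before the ABCG5 start and 102 to 107 bases before that of ABCG8. A further match lies 132 to 137 bases before the ABCG8 start, outside the interval.
ABCG5 and ABCG8 interval: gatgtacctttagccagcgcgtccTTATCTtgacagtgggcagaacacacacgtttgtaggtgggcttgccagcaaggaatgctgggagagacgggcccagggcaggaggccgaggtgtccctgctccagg

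Promoter windows of 250 bases before the start were found for 25 of the 34 transporters and searched for 4 motifs on both strands. The GATA box occurred in 5 of the 25 (ABCB1, ABCB11, ABCG5, ABCG8 and SLC10A1), with 9.37% of 27305 RefSeq windows holding it. The antioxidant response core TGACNNNGC occurred in ABCC4 and SLCO4C1 (11% of all windows). The nuclear receptor motif AGGTCA occurred in 5 windows, those of SLC10A1, SLC22A7, SLC51B, SLCO1B3 and SLCO3A1 (12.1% of all windows). The GC box GGGCGG occurred in 9 (42.3% of all windows). Each motif was counted on its own, whether or not its matches overlapped those of another, and a match describes letters only.

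Of the uptake carriers tested, SLC22A7 rose, SLC22A9 fell and SLCO2B1 did not pass. SLC22A7 carries organic anions and nucleobase compounds. It read 6.27, 6.54 and 6.47 in Petri controls and 7.06, 7.64 and 7.34 in microsystem controls, and the groups did not overlap. The rise was 0.92 ± 0.17 (1.89-fold, adjusted p = 0.000623). SLC22A9, an organic anion carrier of the liver, was lower by 0.28 ± 0.11 (adjusted p = 0.044), and this call was lost in 8 of 21 alternatives (adjusted p from 0.0169 to 0.135), including those without microsystem control 1 (0.11), microsystem control 2 (0.135), microsystem treated 2 (0.0511) or any of Petri control 1 (0.0919), Petri control 2 (0.0912) and Petri control 3 (0.0854). SLCO2B1, a broad carrier of steroid sulfates and drugs, differed by -0.05 ± 0.11 (95% interval -0.29 to 0.20).

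The remaining carriers were higher in the microsystem or did not pass. SLCO4C1, an organic anion carrier best known from kidney, read 5.44, 4.73 and 4.14 in Petri controls and 6.13, 6.66 and 5.44 in microsystem controls. The Petri values exceeded the 40th percentile on 1 of 3 arrays, and microsystem control 3 overlapped the highest Petri array. The difference was 1.31 ± 0.39. It is given without support from its test for the reason stated above, and was 1.01 without microsystem control 2 and 0.99 without Petri control 3. A further probe set of SLCO4C1 had group means between 2.34 and 2.51 and did not show this. SLC22A5, the carnitine importer, rose by 0.72 ± 0.10 (1.64-fold, adjusted p = 7.62e-05), and SLC29A1, an equilibrative nucleoside carrier, by 0.33 ± 0.08 (adjusted p = 0.00316). SLC67A1 (SLC22A18), an organic cation carrier gene of an imprinted region, rose by 0.42 ± 0.14 (adjusted p = 0.0261), with the call lost in 4 of 22 alternatives (highest adjusted p = 0.107). These were quantile normalization (0.0539) and leaving out Petri control 1 (0.0825), microsystem control 1 (0.0896) or microsystem control 2 (0.107). SLCO4A1, a thyroid hormone carrier, differed by 0.32 ± 0.17 (adjusted p = 0.147), with microsystem control 3 at 9.33 against 9.93 and 9.96 in its partners. Without that array its difference was 0.52 ± 0.15 (adjusted p = 0.0125, range 0.00306 to 0.409). Without both microsystem arrays numbered 3, 14 transporters rose and 4 fell, with 44.2% of all genes passing.

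**Figure D2:**
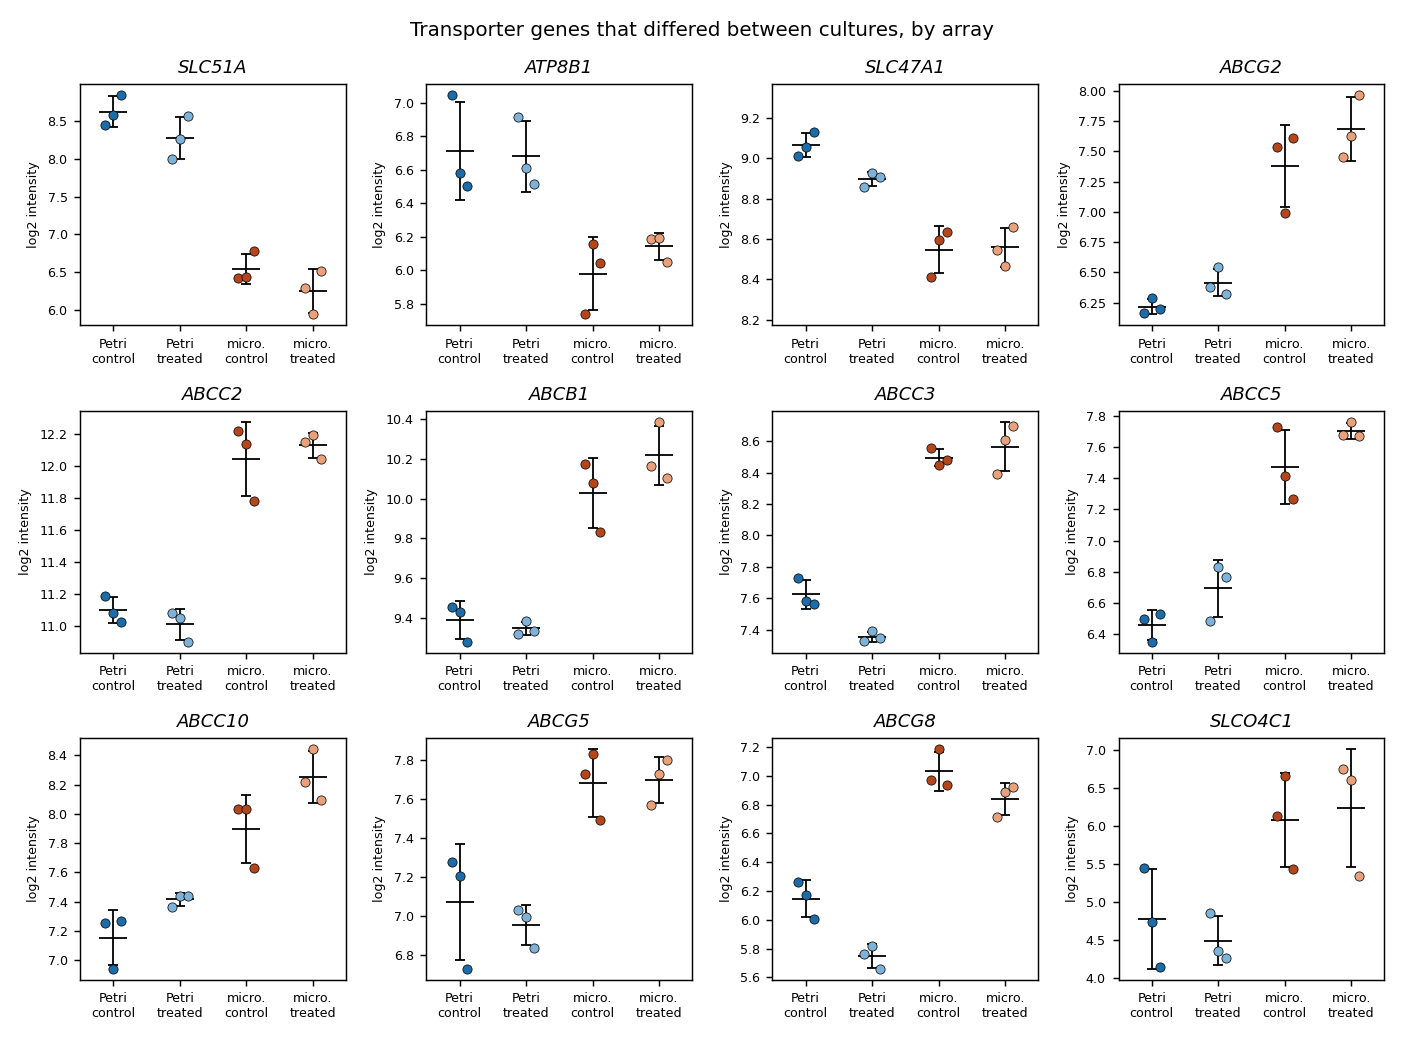
Log2 intensity (vertical axes) on each array for 12 transporter genes in the 4 groups, where "micro." stands for the microsystem. Points are arrays 1 to 3 from left to right, the long tick is the group mean and bars are 1 SD (n = 3). SLC51A, ATP8B1 and SLC47A1 are lower on the microsystem arrays and the ABC pumps higher, and SLCO4C1 has a low value on both microsystem arrays numbered 3 (5.44 and 5.34).

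The same comparison in acetaminophen-treated cells set other arrays against each other. The spread of each gene was still estimated over all 12 arrays, so its p-values are not independent of those in untreated cells. Of the 24 transporters 13 rose, 3 fell and 8 did not pass, a share of 66.7% against 41.4% of all genes (22.6% rose and 18.9% fell). The gap between shares is again a description. The groups did not overlap in 18 of 24, or 75%, as in 52.9% of all genes. SLC51A read 8.002, 8.26 and 8.57 in Petri treated and 6.29, 5.94 and 6.51 in microsystem treated arrays, a fall of -2.03 ± 0.17 (4.09-fold, adjusted p = 1.38e-06). ABCC3 rose by 1.21 ± 0.09 (2.31-fold), ABCG2 by 1.27 ± 0.16 (2.40-fold), ABCC2 by 1.12 ± 0.11 (2.18-fold) and ABCG8 by 1.09 ± 0.10 (2.13-fold), with adjusted p between 5.1e-07 and 3.09e-05 and without overlap. ABCB1 rose by 0.87 ± 0.10 (adjusted p = 2.08e-05). SLCO4C1, above the 40th percentile on 1 of 3 Petri treated arrays, differed by 1.74 ± 0.39, again as a description, with microsystem treated 3 the lowest of its group at 5.34 against 6.75 and 6.61. Without this gene 12 of 23 rose and 3 fell (65.2%). ATP8B1 fell by 0.54 ± 0.15 and SLC47A1 by 0.34 ± 0.08 (adjusted p = 0.0109 and 0.0048). The ATP8B1 call was lost without Petri treated 1 (adjusted p = 0.052, range 0.00377 to 0.052). ABCA1 and SLC22A9 had differences of -0.01 ± 0.09 and 0.11 ± 0.11 here and did not pass. SLC29A1 rose by 0.20 ± 0.08 (adjusted p = 0.0442), a call lost in 10 of 22 alternatives (adjusted p from 0.0236 to 0.152). Among these were leaving out microsystem treated 1 (0.117), 2 (0.0975) or 3 (0.0557), Petri control 2 (0.0586), Petri treated 1 (0.152) or Petri treated 3 (0.0913). SLC67A1 rose by 0.43 ± 0.14 (adjusted p = 0.0243), and this call was lost without microsystem treated 1 (0.106), microsystem treated 2 (0.0847), Petri treated 1 (0.0738) or Petri treated 3 (0.0545), in a range of 0.000278 to 0.106. SLC51B differed by 0.25 ± 0.17 (adjusted p = 0.264), and by 0.44 ± 0.15 without microsystem treated 3 (0.0367, range 0.0301 to 0.744). SLCO4A1 differed by -0.34 ± 0.17 (adjusted p = 0.126), and by -0.49 ± 0.18 without microsystem treated 1 (0.048, range 0.048 to 0.42).

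The effect of acetaminophen was read first in Petri dishes, as treated against control cells. There SLC29A1 rose, SLC22A9 and ABCG8 fell, and 21 of 24 did not pass. The share of 12.5% stood beside 10.4% of all genes (8.38% rose and 1.98% fell), so the transporters passed about as often as other genes. The median difference was -0.09 over the transporters and 0.01 over all genes. The groups did not overlap in 9 of 24 (37.5%), as in 34.5% of all genes.

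SLC29A1, which lets nucleosides and nucleoside drugs cross the plasma membrane in both directions, rose in treated cells of both cultures. It read 8.87, 8.98 and 9.01 in Petri controls and 9.52, 9.69 and 9.62 in Petri treated arrays. Every treated array was above every control array. The rise was 0.66 ± 0.08, or 1.58-fold (adjusted p = 0.000196), and it passed in 23 of 23 alternatives. In the microsystem it read 9.24, 9.33 and 9.26 in controls and 9.85, 9.82 and 9.77 in treated arrays, again apart. The rise there was 0.53 ± 0.08 (1.45-fold, adjusted p = 0.00124), and it passed in 23 of 23 alternatives too. As the one member that rose in both, its 250 bases before the start are shown (RefSeq, GRCh38.p14, chr6:44219365-44219614, plus strand, 5′ to 3′), with both matches to the GC box in capitals, at 70 to 75 and 24 to 29 bases before the start.
SLC29A1: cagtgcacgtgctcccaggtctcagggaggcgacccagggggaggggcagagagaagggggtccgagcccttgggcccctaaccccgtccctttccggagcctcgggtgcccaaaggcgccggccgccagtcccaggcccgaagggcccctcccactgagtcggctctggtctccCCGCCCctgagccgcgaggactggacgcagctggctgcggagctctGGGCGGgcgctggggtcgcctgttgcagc

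**Figure D3:**
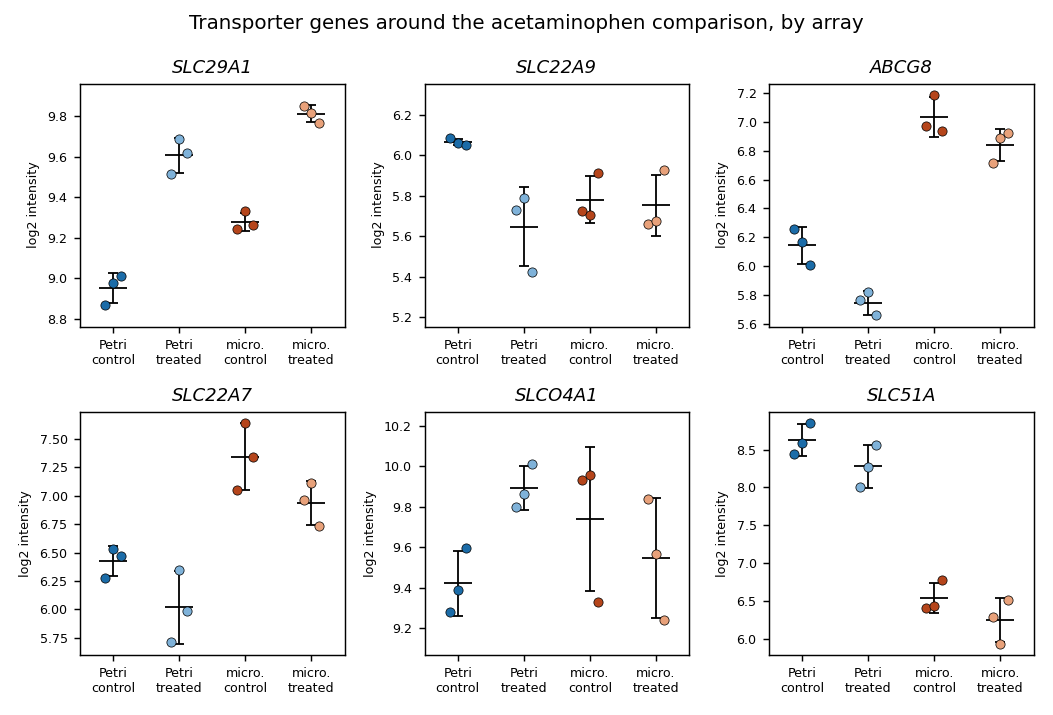
Log2 intensity (vertical axes) on each array for 6 transporter genes in the 4 groups, where "micro." stands for the microsystem. Points are arrays 1 to 3 from left to right, the long tick is the group mean and bars are 1 SD (n = 3). SLC29A1 is higher on all treated arrays of a culture than on its controls, while SLC22A9 is highest on the Petri control arrays (6.05 to 6.08) and SLC51A is higher on all Petri than on all microsystem arrays.

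The falls in Petri dishes were smaller. SLC22A9 read 6.08, 6.06 and 6.05 in Petri controls and 5.73, 5.79 and 5.42 in Petri treated arrays. Its controls lay close together, and all treated arrays were below them. The fall was -0.42 ± 0.11 (1.34-fold, adjusted p = 0.0248), and the call was lost without Petri control 1 (adjusted p = 0.0615), Petri control 2 (0.0738), Petri control 3 (0.0658) or Petri treated 3 (0.114), in a range of 0.00411 to 0.114. In the microsystem SLC22A9 read 5.73, 5.70 and 5.91 in controls and 5.66, 5.67 and 5.93 in treated arrays, a difference of -0.03 ± 0.11. ABCG8 read 6.26, 6.17 and 6.01 in Petri controls and 5.76, 5.82 and 5.66 in Petri treated arrays, all treated below all controls. It fell by 0.40 ± 0.10 (1.32-fold, adjusted p = 0.0197), and lost the call without Petri control 1 (adjusted p = 0.0675), Petri control 2 (0.0704) or Petri treated 3 (0.088), in a range of 0.00217 to 0.088. In the microsystem it read 6.97, 7.19 and 6.94 in controls and 6.71, 6.89 and 6.92 in treated arrays, a difference of -0.19 ± 0.10 (adjusted p = 0.229). ABCG5, its partner, differed by -0.12 ± 0.14 in Petri dishes (95% interval -0.41 to 0.18) and by 0.02 ± 0.14 in the microsystem. Acetaminophen effects in Petri dishes and culture differences in untreated cells share the Petri control arrays. Leaving out Petri control 1, Petri control 2 or Petri treated 3, whose description carries an unexplained asterisk, left SLC29A1 as the 1 transporter that passed in Petri dishes. Over all fits that left out 1 array, 701 to 1520 of all genes passed there, beside 1367 in the main fit.

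Same-numbered Petri arrays deviated together (r = 0.477, 0.189 and 0.307), so the Petri comparison was also read with the replicate number as a block within each culture. Then 6 transporters passed in place of 3, with 16.5% of all genes passing. SLC22A7 read 6.27, 6.54 and 6.47 in controls and 5.71, 6.35 and 5.99 in treated arrays. Each treated array was below the control of its number although the groups overlapped. The difference of -0.41 went from ± 0.17 (adjusted p = 0.142) to ± 0.11 with the block (adjusted p = 0.0299, range 0.0299 to 0.382). SLC51A read 8.44, 8.59 and 8.85 in controls and 8.002, 8.26 and 8.57 in treated arrays, also lower at each number. Its difference of -0.35 had an adjusted p of 0.207 without and 0.0193 with the block (range 0.0193 to 0.494). SLCO4A1 read 9.28, 9.39 and 9.60 in controls and 9.80, 9.86 and 10.01 in treated arrays, without overlap. Its difference of 0.47 had an adjusted p of 0.1 without and 0.00389 with the block (range 0.00389 to 0.262), and of 0.0388 without the block when microsystem control 3 was left out. SLC29A1, SLC22A9 and ABCG8 passed in both fits.

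The pumps of acetaminophen conjugates did not pass in Petri dishes. ABCC2 differed by -0.09 ± 0.11 (95% interval -0.32 to 0.15), ABCG2 by 0.20 ± 0.16 (interval -0.13 to 0.53) and ABCC3 by -0.27 ± 0.09 (interval -0.46 to -0.08, adjusted p = 0.0694). ABCC3 had all treated arrays (7.33, 7.39 and 7.35) below all controls (7.73, 7.58 and 7.57), and passed in 3 of 23 alternatives (range 0.0228 to 0.177), among them the fit without microsystem treated 1 (0.046). ABCB1 differed by -0.04 ± 0.10 (interval -0.26 to 0.18).

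In the microsystem, the same question gave 1 rise, that of SLC29A1, 0 falls and 23 genes that did not pass with limma, a share of 4.17% beside 9.06% of all genes (6.39% rose and 2.67% fell). At an unadjusted p under 0.05 there were 4 of 24 (16.7%), beside 25.8% of all genes. The groups did not overlap in 4 of 24 (16.7%), as in 27.6% of all genes, and the median difference was 0.07 over the transporters and -0.01 over all genes. ABCC1, which exports glutathione conjugates from most cells, came nearest at 0.38 ± 0.12 (adjusted p = 0.0619). It read 9.26, 8.86 and 8.74 in controls and 9.29, 9.49 and 9.21 in treated arrays, and microsystem control 1 overlapped the treated group. Without that array the difference was 0.54 ± 0.10 (adjusted p = 0.00604, range 0.00604 to 0.227). ABCC10 differed by 0.35 ± 0.13 (adjusted p = 0.1) and SLC22A7 by -0.41 ± 0.17 (adjusted p = 0.145). SLC51A differed by -0.29 and did not pass either. ABCC2, ABCG2 and ABCC3 differed by 0.08 ± 0.11, 0.30 ± 0.16 and 0.07 ± 0.09, and ABCB1 by 0.19 ± 0.10 (interval -0.03 to 0.41). With the replicate block within each culture, ABCC10, SLC22A7, SLC51A and ABCC1 passed (adjusted p = 0.0301, 0.0308, 0.0409 and 0.0349). Replicate numbers were not taken as pairs in the microsystem, and the share of all genes in that fit is given below.

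**Figure D4:**
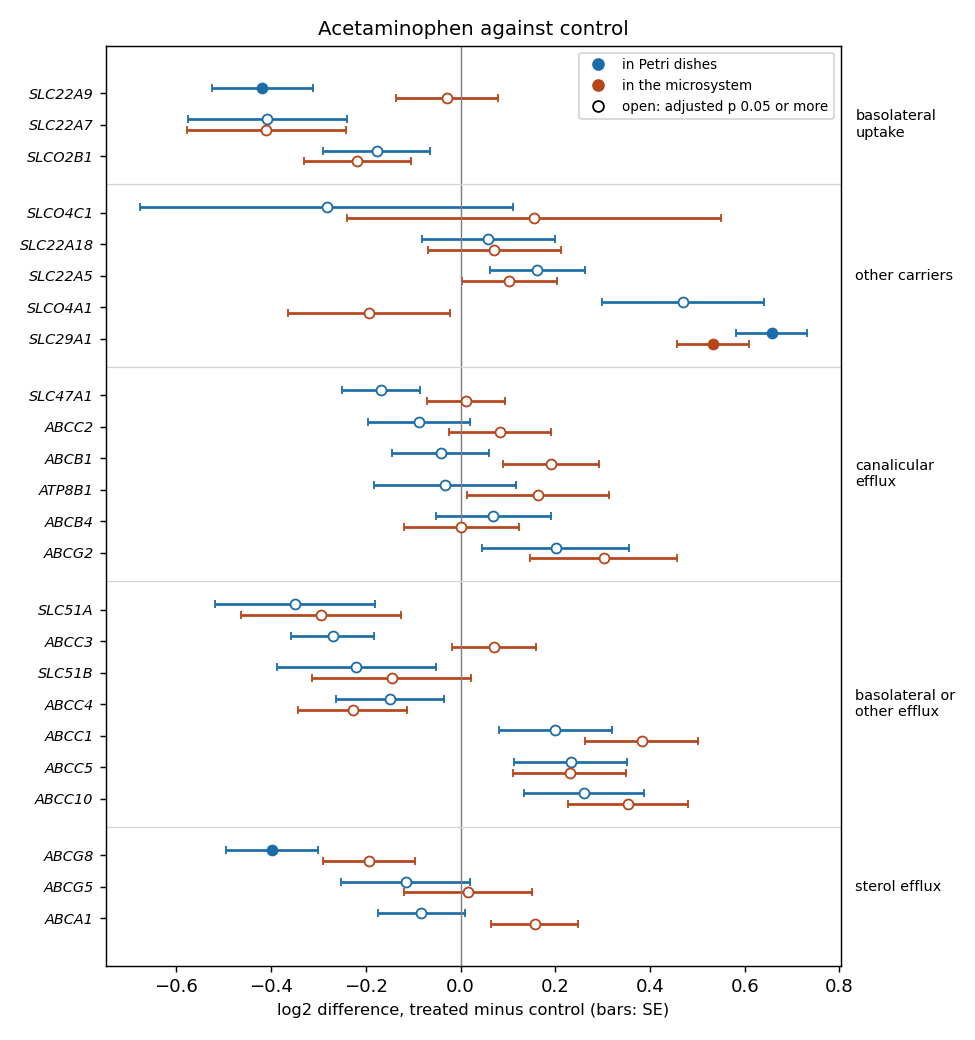
Log2 differences between acetaminophen-treated and control cells (horizontal axis) for the 24 tested transporter genes, grouped by role. Points are estimates from 3 against 3 arrays, bars are SE, blue is Petri dishes and red the microsystem, and open points did not pass an adjusted p of 0.05. SLC29A1 passes in both cultures at 0.66 and 0.53, and SLC22A9 and ABCG8 pass in Petri dishes.

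Whether the acetaminophen effect itself differed between cultures was tested as the difference of the treatment effects (microsystem minus Petri). By limma 0 of 24 transporters passed, beside 0.0303% of all genes (0.00758% higher and 0.0227% lower), and 3 (12.5%) had an unadjusted p under 0.05, beside 7.35% of all genes. No other tool was run. These 3 were SLCO4A1 at -0.66 ± 0.24 (interval -1.18 to -0.14), SLC22A9 at 0.39 ± 0.15 (interval 0.06 to 0.72) and ABCC3 at 0.34 ± 0.12 (interval 0.07 to 0.61), with adjusted p of 0.549, 0.607 and 0.549. For SLCO4A1 the microsystem arrays numbered 3 were the lowest of their groups (9.33 and 9.24), and treated and control arrays of the microsystem overlapped. For SLC29A1 the difference was -0.12 ± 0.11 (interval -0.35 to 0.11), and for ABCG8 it was 0.21 ± 0.14 (interval -0.09 to 0.50). The fall of SLC22A9 and ABCG8 past the threshold in Petri dishes alone is therefore not shown to be a difference between cultures.

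**Figure D5:**
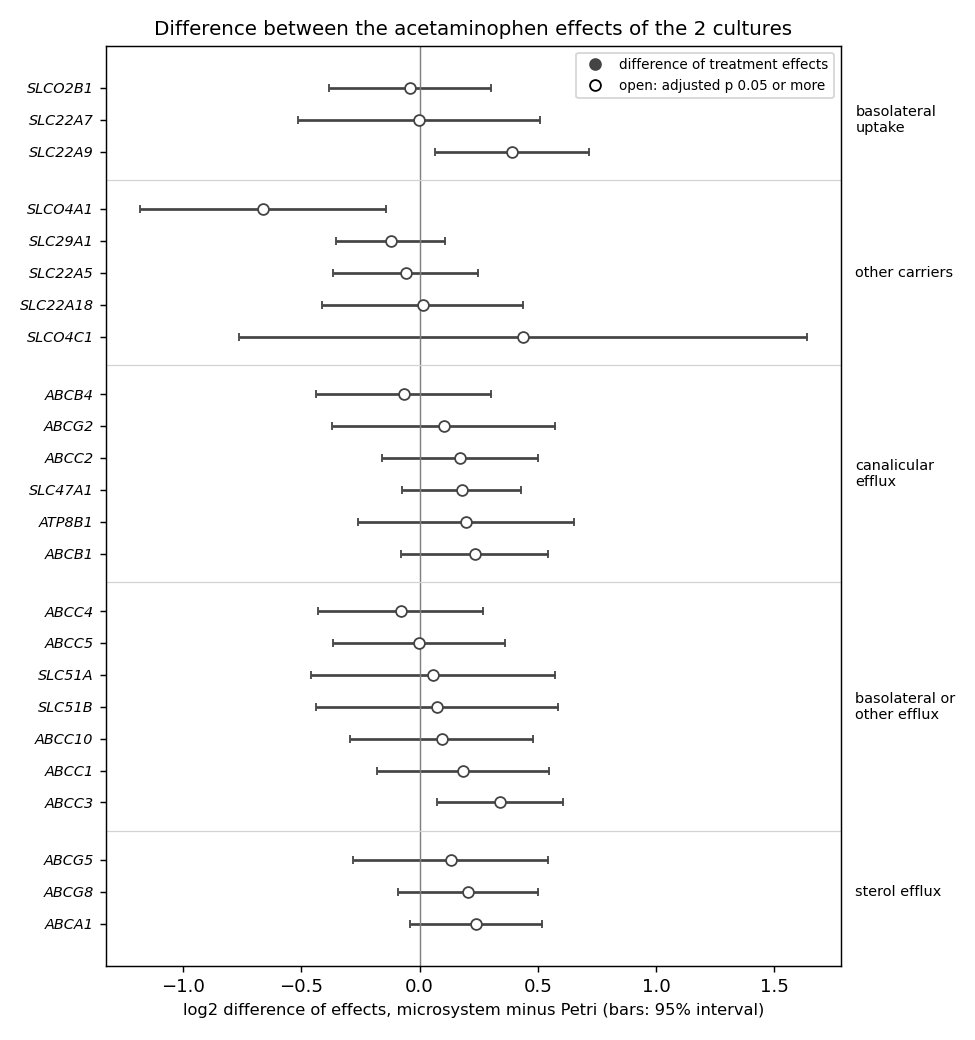
Difference between the acetaminophen effect in the microsystem and that in Petri dishes (log2, horizontal axis) for the 24 tested transporter genes, grouped by role. Points are estimates over 12 arrays and bars their 95% intervals, and all points are open because none passed. The intervals of SLCO4A1, SLC22A9 and ABCC3 do not cross 0 before adjustment over all genes.

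Genes of the same families and pathways outside the 34 were read from fixed lists, whose shares stand beside 44.9% of all genes for culture in untreated cells, 10.4% for acetaminophen in Petri dishes and 9.06% in the microsystem. Of 15 further ABC transporters tested, 7 rose and 3 fell with culture in untreated cells (66.7%). The peptide transporter genes TAP1 and TAP2, which move peptides into the endoplasmic reticulum for antigen presentation, rose by 1.08 ± 0.13 and 0.98 ± 0.14, and the lung surfactant lipid carrier ABCA3 rose by 0.71 ± 0.15. With acetaminophen TAP1 rose in Petri dishes by 1.16 ± 0.13 (adjusted p = 0.000193), the 1 of 15 that passed there. In the microsystem TAP1 differed by 0.44 ± 0.13 and did not pass (adjusted p = 0.0528). In the microsystem 2 of 15 rose, ABCA5 by 0.88 ± 0.22 and the porphyrin carrier ABCB6 by 0.31 ± 0.09. In Petri dishes these genes differed by 0.18 ± 0.22 and 0.28 ± 0.09 (adjusted p = 0.637 and 0.0624). The difference of treatment effects did not pass for TAP1, ABCA5 or ABCB6 (adjusted p = 0.302, 0.671 and 0.98). Of 22 further carriers of drugs, bile salts, nucleosides and peptides, 7 rose and 3 fell with culture (45.5%, near the share of all genes), and the largest fall was that of the concentrative nucleoside importer SLC28A1 (-1.77 ± 0.11, adjusted p = 1.57e-07). With acetaminophen 0 of 22 passed in Petri dishes by limma, where 5 (22.7%) had an unadjusted p under 0.05, beside 26.3% of all genes. In the microsystem 1 of 22 rose, the intestinal and hepatic sterol importer NPC1L1 (0.35 ± 0.09, adjusted p = 0.0244), which was also higher in microsystem than in Petri controls (0.50 ± 0.09). With acetaminophen in Petri dishes NPC1L1 differed by 0.23 ± 0.09 (adjusted p = 0.103). Its difference of treatment effects did not pass (adjusted p = 0.887).

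Among 17 receptors and factors known to control transporter genes, culture in untreated cells gave 8 falls and 2 rises (58.8%). The share over all genes was 44.9% (26.5% rose and 18.3% fell). The glucocorticoid receptor NR3C1 fell by 1.55 ± 0.10, the aryl hydrocarbon receptor AHR by 0.99 ± 0.09 and FOXA2 by 0.89 ± 0.12 in microsystem against Petri controls. NFE2L2, which encodes NRF2, fell by 0.59 ± 0.09, and KEAP1, its inhibitor, rose by 0.70 ± 0.08. These last genes were named after their values were seen. Of 9 NRF2 targets outside the transporters 7 rose and 0 fell in the same comparison (77.8%), among them GCLM (1.91 ± 0.12), NQO1 (1.48 ± 0.12) and SLC7A11 (1.39 ± 0.25). With acetaminophen HNF4G fell in both cultures, by 0.45 ± 0.07 in Petri dishes and 0.64 ± 0.07 in the microsystem, and was the 1 of 17 factors that passed in Petri dishes. In the microsystem NR3C1 rose by 0.54 ± 0.10 and ESRRA fell by 0.33 ± 0.10. In Petri dishes NR3C1 and ESRRA differed by 0.08 ± 0.10 and -0.14 ± 0.10 and did not pass. The difference of treatment effects did not pass for either gene (adjusted p = 0.445 and 0.819). Among NRF2 targets, SLC7A11 fell by 1.27 ± 0.25 and HMOX1 by 0.43 ± 0.12 in treated Petri cells, where SRXN1 rose by 0.34 ± 0.09. In the microsystem HMOX1 rose by 0.58 ± 0.12 and GCLC by 0.29 ± 0.08. The difference between the HMOX1 effects was 1.01 ± 0.16 and did not pass (adjusted p = 0.0566). The difference of treatment effects did not pass for SLC7A11, SRXN1 or GCLC either (adjusted p = 0.262, 0.774 and 0.807).

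Of 9 targets of the sterol-sensing receptors outside the transporters, 3 rose and 2 fell with culture in untreated cells (55.6%), with FASN at 1.19 ± 0.15, LPCAT3 at 0.82 ± 0.09 and PLTP at -0.65 ± 0.11. With acetaminophen PLTP, the phospholipid transfer protein, rose in Petri dishes by 1.42 ± 0.11 and SMPDL3A fell by 0.51 ± 0.10, and in the microsystem they moved by 1.26 ± 0.11 and -0.38 ± 0.10. Of 10 bile acid receptor targets 4 were not tested, being under the filter. Of the 6 tested 3 fell with culture (50%), FETUB by 1.01 ± 0.08, FGB by 0.46 ± 0.17 and C3 by 0.41 ± 0.07. NR0B2 (0.21 ± 0.16), SLC27A5 (0.18 ± 0.11) and FGF19 (-0.14 ± 0.12) did not pass. FGB is also one of the hepatocyte markers. With acetaminophen FETUB fell by 0.30 ± 0.08 in Petri dishes. In the microsystem 0 of 6 passed by limma, where 1 (16.7%) had an unadjusted p under 0.05, beside 25.8% of all genes. FETUB differed there by -0.26 ± 0.08 (adjusted p = 0.0738), and its difference of treatment effects did not pass (adjusted p = 0.965). Of 12 scaffold and trafficking genes of the canalicular membrane, 2 rose and 4 fell with culture (50%), led by the scaffold NHERF2 (0.63 ± 0.08), VIPAS39 (-0.52 ± 0.08) and the recycling GTPase RAB4A (-0.49 ± 0.09). With acetaminophen the syntaxin STX3 rose in Petri dishes (0.42 ± 0.10), and in the microsystem the actin linker radixin (RDX) rose by 0.54 ± 0.13 and RAB4A fell by 0.37 ± 0.09. In the other culture STX3 differed by 0.22 ± 0.10, RDX by 0.17 ± 0.13 and RAB4A by -0.21 ± 0.09, and none passed. The difference of treatment effects did not pass for any of these genes (adjusted p = 0.797, 0.701 and 0.844). Every gene of these lists described as rising or falling passed an adjusted p under 0.05 by limma in the comparison stated.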

How the data were processed

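The deposited table holds RMA values, which the authors computed in Affymetrix Expression Console according to the submitters' processing notes, as log2 intensities of 12 arrays. Versions and build are not given in the sources. The values were used as deposited. Of 32321 probe sets, 19158 had 1 symbol, 1388 several and 11775 none here, and symbols were updated by gene ID.

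Each group had its own coefficient in a limma 3.58.1 fit (R 4.3.3, the data.table package, version 1.17.8) of 13199 genes over 12 arrays, with empirical Bayes moderation (8 residual and 5.35 prior degrees of freedom), two-sided tests and Benjamini-Hochberg adjustment over all 13199. SE and 95% intervals come from this fit. Precision is limited by the number of arrays. Figures used Python 3.11.15, pandas 2.3.3 and matplotlib 3.10.9.

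Pairing by replicate number was checked by correlating deviations from group means across genes. The rule was that every value exceed 0.1, and arrays of different numbers were not correlated for reference. By this rule pairing held for Petri dishes (r = 0.477, 0.189 and 0.307), and not for the microsystem (0.107, 0.0708 and 0.604) or between cultures. The value of 0.604, for the microsystem arrays numbered 3, was the highest of all. The block within each culture also covers the microsystem arrays. The alternatives were replicate blocks, the compared arrays only, quantile normalization, equal array medians, no filter or a 60th percentile filter, mean of probe sets, an intensity trend, array weights and leaving out each array. Leaving out both microsystem arrays numbered 3 was chosen after seeing the data. Array values are given for transporters past the threshold under treatment and for the largest culture differences in controls (up to 6 each way), and up to 3 genes are named per further list. For some lists, values that did not pass were added after they were seen. ABCG5, ABCC3, ABCC1 and SLCO4A1 are also given by array, a choice made after their values were seen. The transporters and lists were chosen with earlier results of these data known.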

Additional observations from a re-analysis of the deposited data

How the results depend on the processing

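Directions and calls were recomputed under 23 alternatives. Of 2673 values for 120 transporter differences, 2513 kept their direction and side of the threshold, 44 lost a call, 30 gained one, and 86 turned sign while not passing before or after. No called value turned sign. In Petri dishes the count of transporters past the threshold, 3, was 5 with a replicate block (12.9% of all genes), 6 with the replicate block within each culture (16.5%), 7 with array weights (27.3%), and 1 to 4 leaving out single arrays, where 701 to 1520 of all genes passed beside 1367. In the microsystem the count, 1, was 2 with the replicate block (12% of all genes), 5 with the block within each culture (16%; SLC29A1, SLC22A7, SLC51A, ABCC1 and ABCC10), 2 with array medians set equal (9.71%), 2 with array weights (11.5%) and 1 to 2 leaving out single arrays, where 460 to 1440 of all genes passed beside 1196. Replicate numbers were not taken as pairs there or between cultures, and the cause of these gains was not tested. The counts for culture stayed within 1.5 times the main count (14 to 18 in controls and 13 to 16 in treated cells leaving out single arrays, beside 4902 to 6029 and 4404 to 5653 of all genes), and for the difference of treatment effects 0 passed in all 22 settings. Of the 18 culture calls in controls 14 held in all alternatives, and of the 16 in treated cells 13. SLCO4C1 is counted in the 18, the 16 and the 13. Its difference stays a description, since it entered the test only through the microsystem arrays. The within-culture block could not be fitted for culture, a 60th percentile filter left out SLC22A9 and ABCC4, and the mean of probe sets left out SLCO4C1. Low signal limits what can be said of the 8 transporters under the filter.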
